A study of Homo sapiens with 8 samples.

Results

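Peaks in later introns are ATAC-seq peaks that lie inside a gene, in any intron after the first. They were taken from the annotation in the authors' deposited peak table, as every peak annotated to an intron other than intron 1 of its transcript. The rule gave 20299 of 70312 peaks (28.9%), which held 16.8% of the table's summed mean normalised count. Raji, a B lymphoblast line from a Burkitt lymphoma, was compared in 2 genotypes, wild type and the RGS-SE knockout. In the knockout a super-enhancer by the genes RGS1 and RGS13 was targeted with Cas9 and a pair of guides (chr1:192515157-192741754, hg38). The peak table goes against a loss of that whole interval: of the 18 peaks that overlap it, 1 was nearly lost (chr1:192609102-192609836, from a fitted 622 normalised counts to 0.186), and the others lay between -0.97 and 1.14 on the log2 scale in the authors' deposited table. Knockout is therefore used here as the label of the cells. After electroporation and puromycin, single clones were picked; the number of clones behind the libraries is not given, and nothing in the labels says that the wild-type cells went through the same steps, so genotype, clone and handling cannot be told apart. ATAC-seq, which reads transposase insertions into open chromatin, and poly(A) RNA-seq were each made from 2 libraries per genotype, 8 in all, which the series calls biological replicates. The tables hold fitted values for the 4 libraries of an assay together, so values of single libraries were not analysed here, and whether the genotypes' libraries overlap was not tested.

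The later introns of a gene lie far from its promoter and hold many enhancers, stretches of open chromatin that bind transcription factors and raise transcription of the gene around them or of another gene at a distance. They also hold sites of CTCF, a protein that anchors chromatin loops, and starts of alternative transcripts. In B cells, enhancers carry sites for factors of the line such as PU.1, OCT factors and EBF1, and for NF-kB, which signals from CD40 and the B cell receptor switch on.

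Short stretches of hg38 around motif matches are shown first, because the shares of changed peaks with and without a motif are described later with these examples. All are read from the plus strand, with 30 bases on each side of the match where the peak's 300-base centre reached that far, and the match is in capitals. Motifs were searched on both strands, and an N stands for any base. The NF-kB p50 motif (GGG and, 2 bases on, TTTCC) lies on the minus strand in CALN1 (chr7:71900713-71900782), PAX5 (chr9:36994087-36994156) and PLEKHG1 (chr6:150813650-150813719), and on the plus strand in SNX29 (chr16:12296892-12296961). These 4 peaks were all higher in the knockout.
CALN1: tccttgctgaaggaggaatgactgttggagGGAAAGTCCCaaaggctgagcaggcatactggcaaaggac
PAX5: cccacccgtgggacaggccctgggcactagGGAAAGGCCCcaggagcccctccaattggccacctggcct
PLEKHG1: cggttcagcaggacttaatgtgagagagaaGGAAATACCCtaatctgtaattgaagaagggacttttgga
SNX29: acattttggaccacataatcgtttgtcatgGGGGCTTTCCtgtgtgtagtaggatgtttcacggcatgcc

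The PU.1 motif, GAGGAAGT, was more frequent among peaks that fell. It is shown on the minus strand in GABARAPL2 (chr16:75576512-75576579) and on the plus strand in MYRFL (chr12:69906452-69906519), both lower in the knockout. A further example, on the minus strand in intron 2 of IRF4 (chr6:394089-394156), lies in a peak that rose.
GABARAPL2: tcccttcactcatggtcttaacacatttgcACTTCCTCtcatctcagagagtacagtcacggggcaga
MYRFL: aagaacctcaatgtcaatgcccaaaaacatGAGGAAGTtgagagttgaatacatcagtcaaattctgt
IRF4: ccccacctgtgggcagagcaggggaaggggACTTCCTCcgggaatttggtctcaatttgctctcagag

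The CTCF core (CCA, an AG 2 bases on, and a GGC 2 bases further) marked peaks that seldom passed the threshold. It is shown on the minus strand in LINC02255 (chr15:74384704-74384751), whose peak did not pass, and on the plus strand in SPTBN4 (chr19:40570802-40570873), whose peak passed with a small decrease, and in BAIAP3 (chr16:1342890-1342961), whose peak rose.
LINC02255: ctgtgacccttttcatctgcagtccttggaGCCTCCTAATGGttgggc
SPTBN4: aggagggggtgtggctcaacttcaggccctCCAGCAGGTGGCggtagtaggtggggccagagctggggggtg
BAIAP3: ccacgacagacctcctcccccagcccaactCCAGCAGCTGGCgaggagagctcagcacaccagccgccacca

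The 300-base centres of the leading increase and the leading decrease follow, the first in intron 2 of PUDP (chrX:7084034-7084333) and the second in intron 2 of SEMA4A (chr1:156157548-156157847). In capitals are matches to the searched motifs: in PUDP an ETS-IRF composite (GGAA and, 2 bases on, GAAA), a CTCF core, a RUNX motif (TGTGGTT) and an AP-1 motif (TGANTCA), and in SEMA4A 2 E-boxes (CACCTG). A match is a description of the letters, not evidence of a bound factor.
PUDP: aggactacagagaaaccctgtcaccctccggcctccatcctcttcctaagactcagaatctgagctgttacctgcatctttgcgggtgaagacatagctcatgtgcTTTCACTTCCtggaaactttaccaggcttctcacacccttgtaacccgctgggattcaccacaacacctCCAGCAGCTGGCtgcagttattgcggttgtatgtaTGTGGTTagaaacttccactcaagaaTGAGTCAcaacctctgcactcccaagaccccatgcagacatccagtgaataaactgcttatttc
SEMA4A: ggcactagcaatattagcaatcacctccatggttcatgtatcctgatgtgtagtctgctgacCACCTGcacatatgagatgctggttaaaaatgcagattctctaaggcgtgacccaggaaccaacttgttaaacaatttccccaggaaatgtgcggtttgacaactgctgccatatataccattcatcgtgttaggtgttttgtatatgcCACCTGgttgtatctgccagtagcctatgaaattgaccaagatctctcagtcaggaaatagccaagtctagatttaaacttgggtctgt

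Later-intron peaks were spread over many genes and were weaker than peaks nearer to promoters. A host gene, the gene whose transcript the annotation names, could be given for 20189 peaks in 8018 genes, and 110 peaks had none. Of the host genes, 4035 held a single such peak, and the fullest, DLG2 and TCAF2, held 32 each. The median peak lay in intron 4 of its transcript and the highest intron number was 146; 5409 peaks were in intron 2 and 2569 in the last intron. The median distance to the nearest annotated start site was 31417 bp, and for 56.0% of the peaks with a host the gene with that start site was the host itself. Part of the set was not plain intron: 4386 spans (21.6%) touched an exon of a GENCODE v44 transcript and 1678 (8.27%) had a GENCODE start within 500 bases.

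In the authors' deposited table the mean normalised count of a later-intron peak, over the 4 libraries, ran from 2.91 to 5030 with a median of 85.8. The median was 131 in the 10917 first-intron peaks, 86.1 in the 25883 intergenic peaks and 706 in the 8420 promoter peaks. Lower counts bring wider errors: the median standard error (SE) of the log2 fold change was 0.188 in members with a mean of at least 100 and 0.362 in those below it.

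Later-intron peaks differed between the genotypes in both directions, at a rate close to that of the whole table. At an adjusted p under 0.05 in the authors' deposited table (DESeq2 Wald test, Benjamini-Hochberg adjustment over all peaks), 7232 of the 20299 peaks passed (35.6%), against 35.9% of all peaks. Of these, 4042 (19.9%) were higher in the knockout and 3190 (15.7%) were lower, beside 20.4% and 15.5% of all peaks. The direction of the fold change is not named in the tables. Positive values were read as higher in the knockout, because a peak inside the targeted interval, and a noncoding RNA with its start at that peak, were nearly lost on that reading; if the sign is coded the other way, every direction given here turns. In bulk ATAC-seq, fewer cells with an open site and less opening in each cell cannot be told apart.

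Of the 7232 changed later-intron peaks, 3812 (52.7%) moved by at least 1 log2 unit, against 46.8% of the changed peaks of the whole table. By the authors' deposited table, increases of that size numbered 2344 (11.5% of the members) and decreases 1468 (7.23%), beside 11.0% and 5.79% of all peaks. Large changes were also common in intergenic peaks, with 3656 increases and 1579 decreases of that size among 9514 changed peaks. In promoters there were 324 and 216 among 2879, and in first introns 1105 and 608 among 4084. At 3 log2 units there were 157 higher members (0.773%) and 47 lower ones (0.232%), beside 0.895% and 0.273% of all peaks. The median log2 fold change of the members was -0.02, with quartiles of -0.42 and 0.46; it was -0.01 over all peaks, 0.02 in first introns, 0.04 in intergenic peaks and -0.06 in promoters. The balance of directions differed more between the classes: 55.9% of the changed later-intron peaks were higher, against 58.7% in first introns, 62.3% in intergenic peaks and 41.6% in promoters. These shares are descriptions of calls from the same libraries, with no test between the classes.

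**Figure D1:**
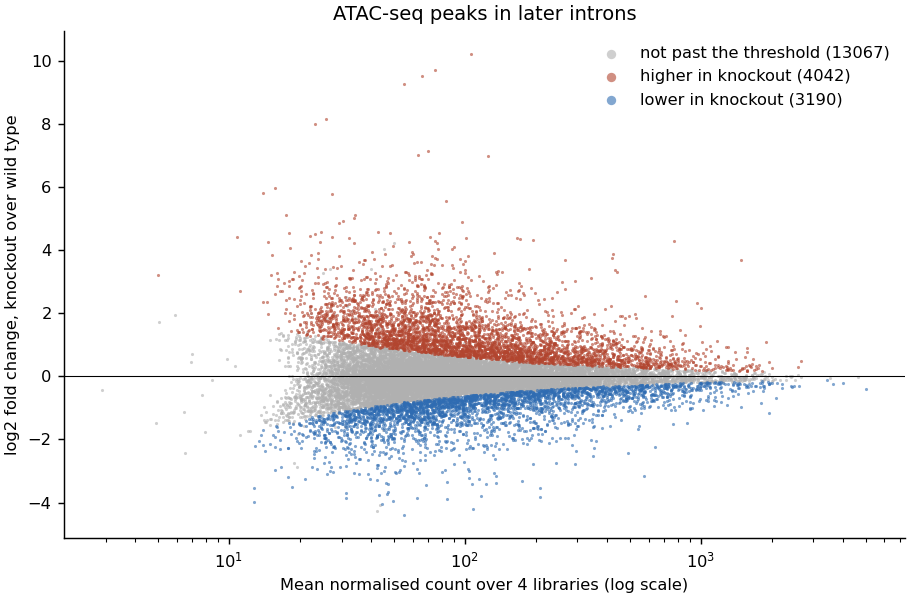
Each point is a later-intron peak, with the mean normalised count of the 4 ATAC-seq libraries on a log axis and the log2 fold change (knockout over wild type) on the other. The 4042 higher and 3190 lower peaks past an adjusted p of 0.05 are coloured; the largest changes are increases, up to 10.21.

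The number of calls depended on what was asked of a peak. With the test set against a change of 1.5-fold, 2106 members passed (10.4%, beside 10.0% of all peaks) and 67.2% of them were higher. With the Wald statistics divided by their robust spread of 2.47, 548 passed (2.70%, beside 3.35% of all peaks) and 65.0% were higher.

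**Figure D2:**
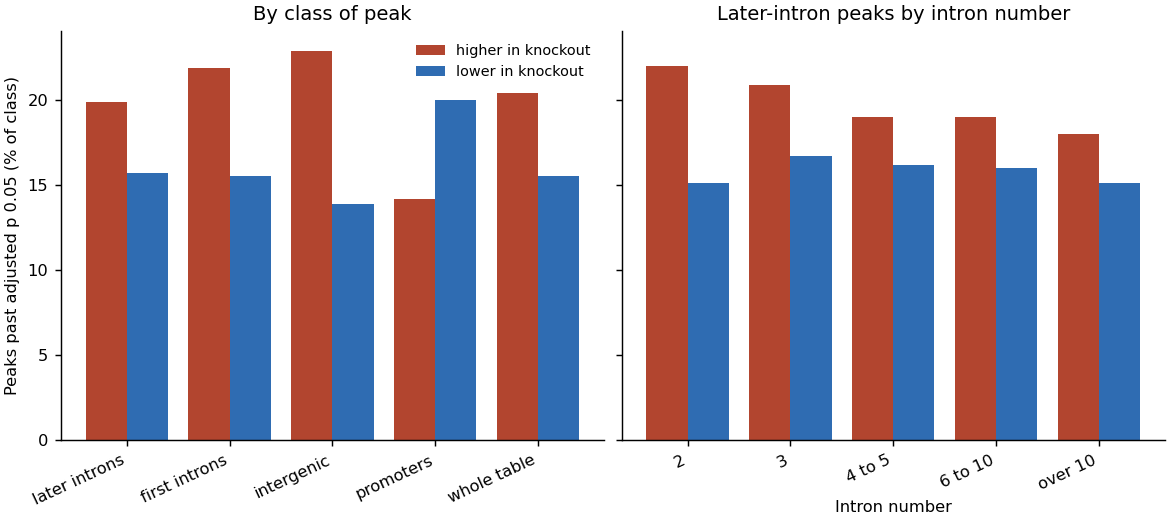
Bars give the percent of peaks past an adjusted p of 0.05 that were higher or lower in the knockout, by class of peak on the left and, for later introns only, by intron number on the right. Promoters alone have more lower than higher peaks, and within later introns the higher share goes from 22% in intron 2 to 18.0% beyond intron 10.

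Position within the gene made little difference. The share of higher peaks was 22% in intron 2, 20.9% in intron 3, 19.0% in introns 4 to 5, 19.0% in introns 6 to 10 and 18.0% beyond intron 10, while the lower share stayed between 15.1% and 16.7%. Peaks in the last intron of their transcript were higher in 19.9% and lower in 13.9% of cases, against 19.9% and 16% elsewhere. By distance to the nearest start site, the higher share was lowest from 5 to 20 kb (18.1%) and highest over 100 kb (22%). Spans that touch a GENCODE exon were called in 35.1% of cases and the others in 35.8%. The mean count moved with the calls: 29.9% of members with a mean up to 49.9 passed and 46.2% of those above 174, and all peaks in the same 2 ranges of mean passed in 30.6% and 40.7% of cases.

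The largest increases were taken among members whose mean was not under the members' median, with at most 1 per host gene. A large fold at such a mean needs a low wild-type level, so the low wild-type levels given here follow in part from the rule. For 3 of the peaks named the RNA of the host gene was hardly present. The leading peak, in intron 2 of PUDP (chrX:7083732-7084634), which encodes a phosphatase of pseudouridine breakdown, had a fitted level of 0.18 normalised counts in wild type and 213 in the knockout. Its log2 fold change in the authors' deposited table was 10.21 (SE 1.46, adjusted p 5.80e-11 by the DESeq2 Wald test); with a wild-type level so near 0 this value is no bound. With scaled statistics it did not pass (adjusted p 0.101). PUDP RNA also rose, by 10.72 (adjusted p 4.19e-13, DESeq2). Beyond PUDP, the next increases named under this rule lay between 3.90 and 4.89 in the authors' deposited table.

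These peaks fell in genes of many kinds. A peak in intron 6 of TGFBR3, a co-receptor for TGF-beta ligands (chr1:91731343-91732088), went from a fitted 6.33 to 187 normalised counts. One in intron 13 of RPTOR, the scaffold subunit of the mTORC1 growth kinase (chr17:80877029-80877916), went from 15.2 to 318, although RPTOR RNA did not pass (-0.17, adjusted p 0.612 in the authors' deposited table, DESeq2). The strongest of them in wild-type cells, in intron 2 of LRRC27 (chr10:132335125-132335879), went from 75.1 to 1457, also with RNA that did not pass (-0.67, adjusted p 0.304 in the authors' deposited table, DESeq2). The LRRC27 peak touches an exon and is centred 394 bases from a GENCODE start. SGMS1, which encodes a sphingomyelin synthase, had both a peak in intron 3 that went from 18.6 to 370 and RNA that rose by 0.64 (adjusted p 0.0177, DESeq2). LINC03019, PRUNE2, MYO9B and EPIC1 followed, where the authors' deposited table gives 4.34, 4.11, 4.02 and 3.90; the LINC03019 peak was at 3.48 after the local median of the fold change was taken off. The RNA of TGFBR3, LINC03019 and PRUNE2 was at or under 0.209 CPM, that is, counts scaled to a fixed total. All the peaks named here were past the threshold also after this local centring.

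The largest decreases under the same rule were smaller in size than the leading increases. In intron 2 of SEMA4A, a semaphorin of immune cells (chr1:156157523-156157871), the fitted level went from 205 normalised counts to 11. The log2 fold change in the authors' deposited table was -4.21 (SE 0.38, DESeq2 Wald test adjusted p 5.32e-27). SEMA4A RNA also fell (-1.50, adjusted p 2.08e-09, DESeq2), and its promoter peak fell by 0.40 (adjusted p 0.000291). A peak in intron 20 of PARD3, a cell polarity gene (chr10:34173652-34174605), went from 389 to 27.7, and one in intron 4 of RGS7, a regulator of G protein signalling that lies far from the targeted interval, from 219 to 15.7. Other large decreases in the authors' deposited table were in ANKS1B (-3.55), ASAP1 (-3.42), PTPRT (-3.41), MEGF6 (-3.38), LAMP3 (-3.33), MIR9-2HG (-3.26) and NFATC3 (-3.23), the last a factor of the NFAT family that acts downstream of calcium signals. Of these hosts, ASAP1 and NFATC3 had RNA that fell too (-0.74 and -0.43 in the authors' deposited table, adjusted p 0.00033 and 0.0476, DESeq2). After local centring their peaks were at -2.45 and -2.56. For PARD3, ANKS1B, PTPRT, MEGF6 and LAMP3 the RNA was at or under 0.182 CPM, and RGS7 and MIR9-2HG had no RNA value. The MEGF6 peak touches an exon and is centred 10 bases from a GENCODE start.

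The strongest later-intron peaks changed little. The highest mean, 5030, was in intron 8 of SLC38A8, an amino acid transporter gene, where wild-type cells had a fitted level of 5738 and knockout cells one of 4323 (log2 fold change -0.41 in the authors' deposited table). That peak lies where neighbours were lower as well, and after local centring its value was 0.19, so its direction turned. UBXN11 (mean 4618, -0.02) and ETS1, a B cell transcription factor (3537, -0.04), did not pass, while CXXC5 (4010, -0.22) and ORAI2, a calcium channel gene (3627, -0.25), passed with small decreases in the authors' deposited table. After local centring ETS1 passed as well (-0.16), and with scaled statistics CXXC5 and ORAI2 did not (adjusted p 0.423 and 0.272).

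Large changes came in runs in some genes. A run was counted where at least 3 neighbouring later-intron peaks of a host gene all passed and all changed by at least 3 log2 units the same way; there were 6 runs of increases and 0 of decreases. On the X chromosome, 3 peaks of PUDP (chrX:7059138-7089486) rose by 6.99 to 10.21 and 4 peaks of the nearby STS, which encodes steroid sulfatase (chrX:7204896-7264833), by 7.01 to 9.70 in the authors' deposited table. All of these had fitted wild-type levels at or under 1.954 normalised counts. STS RNA rose as well, by 9.04, and the STS promoter peak by 8.31 (adjusted p 4.08e-12 and 1.31e-27, DESeq2 Wald test). The other runs were in CSMD1 (3.66 to 5.77), PRUNE2 (4.11 to 4.55), PSD3 (3.49 to 5.11) and THSD7B (3.67 to 4.28), with 3 peaks each. Runs differed in extent. The PSD3 peaks lie side by side (chr8:18884778-18886129), 1034 to 2051 bp from the annotated start of PSD3, and may be parts of a single open site. Those of THSD7B span chr2:136956852-137334138. After local centring 5 runs of increases and 0 of decreases met the rule: those of CSMD1 and PSD3, on a part of chromosome 8 that was higher as a whole, then each held a peak under 3 log2 units (2.67 and 2.56), and a run of 3 peaks in TOX2 (3.02 to 4.54) met it. Pairs of neighbouring decreases of that size occurred in ANKS1B, NCALD, PARD3 and PTPRT.

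Neighbouring changed peaks tended to move the same way, and more so the closer they were. Of 549 pairs of consecutive changed peaks at most 5 kb apart in the same host gene, 484 (88.2%) had the same direction. The share was 82.8% from 5 to 20 kb, 76.2% from 20 to 100 kb and 74.4% above that. Pairs in different host genes gave like shares at matched distances up to 100 kb, with 84.1% of 44 pairs from 5 to 20 kb and 74.3% of 327 from 20 to 100 kb. Over 100 kb it was 63.4% of 612 pairs in different host genes, beside 86 pairs in the same one. Among the 1466 host genes with at least 2 changed peaks, 944 (64.4%) had changes in 1 direction only and 522 had both. All these shares rest on fold changes before local centring, and the part of regional shifts in them was not tested. The agreement of unrelated peaks was not computed either, and 55.9% of all changed members were higher.

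Direction also followed the region of the chromosome. In 10 Mb bins with at least 20 members, 199 of 282 bins had a median log2 fold change within 0.2 of 0. In 18 bins the median was 0.5 or more, and 702 of their 1292 peaks were higher. In 9 bins it was -0.5 or less, and 394 of their 651 peaks were lower. The lowest bin was at 20 to 30 Mb of chromosome 9 (median -1.28, 27 of 39 peaks lower) and the highest at 0 to 10 Mb of chromosome 8 (1.16, 42 of 62 higher), followed by 0 to 10 Mb of chromosome 16 (1.05, 56 of 68 higher and 0 lower). Chromosome 16 held peaks of both kinds (60.1% called, 198 higher and 213 lower of 684), while chromosome 6 leaned one way (443 higher and 89 lower of 1251, median 0.35).

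**Figure D3:**
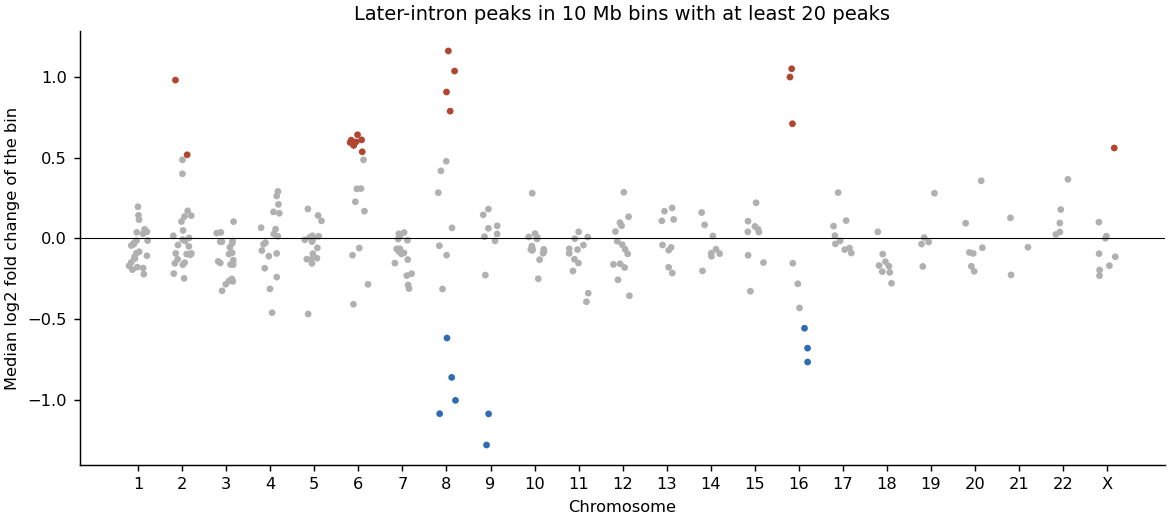
Each point is a 10 Mb bin with at least 20 later-intron peaks, placed by chromosome, with the bin's median log2 fold change (knockout over wild type). Coloured bins have a median of 0.5 or more (18 bins) or -0.5 or less (9 bins); they lie mainly on chromosomes 2, 6, 8, 9 and 16.

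To set regional shifts apart from single peaks, each fold change was also centred on the median of itself and the 50 peaks of any class on each side. After that 6284 members passed (31.0%, beside 30.8% of all peaks), 5647 of which had passed before. For 13.3% of the members the local median was beyond 0.3 either way.

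Later-intron peaks moved with the RNA of their host gene. Among the 17013 genes tested for RNA, 19.2% passed the threshold, 9.89% higher and 9.28% lower, and 9.02% passed with a change of at least 1 log2 unit. In host genes whose RNA rose, 32.7% of 2211 peaks rose and 9.86% fell (median log2 fold change 0.24). In host genes whose RNA fell, 9.66% of 1997 peaks rose and 32.1% fell (median -0.27). Where the RNA did not pass, the shares were 17.1% and 16.1% of 10017 peaks, and where it had no adjusted p or the host was not in the RNA table, 23.3% and 11.8% of 6074.

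Of 1775 changed peaks in 840 host genes with changed RNA, 1364 (76.8%) had the direction of the RNA: 722 rose with it and 642 fell with it. The share was 83.8% of 903 peaks where the RNA changed by at least 1 log2 unit. After local centring the share was 61.7% of 1434 peaks, or 71.7% of 692 with the larger RNA changes. The chromosomes differed widely. The share was 93.5% of 247 peaks on chromosome 8 and 93.2% of 205 on chromosome 16, and 64.3% of 126 on chromosome 1. It was near an even split on chromosomes 5 (58.5% of 41), 14 (53.1% of 32), 15 (51.8% of 56) and 22 (45.8% of 24). The same count gave 79.6% in first introns and 87.8% in promoters.

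**Figure D4:**
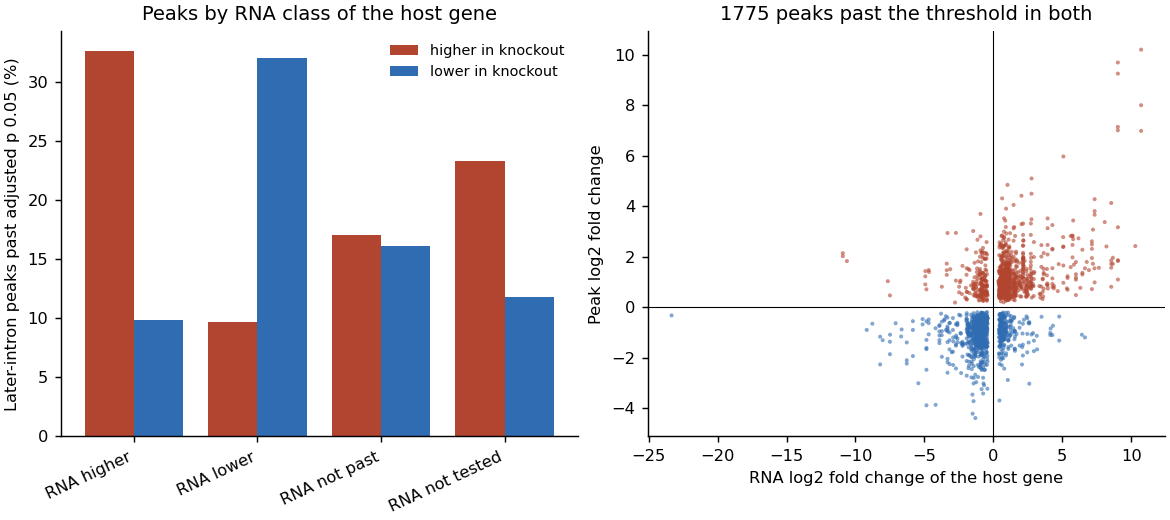
On the left, bars give the percent of later-intron peaks that were higher or lower, by the RNA change of the host gene; on the right, each of 1775 points is a peak past the threshold in a host gene whose RNA also passed, with both log2 fold changes (knockout over wild type). The upper right and the lower left hold 722 and 642 of the points.

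A changed later-intron peak came with a changed promoter more often than an unchanged one did. Among 2948 changed members whose host gene had a promoter peak, the promoter peak did not pass in 53.8%, against 66.1% of 5457 members that were themselves not past the threshold; 34.2% of all promoter peaks passed. Higher members had a higher promoter in 35.2% and a lower one in 13.0% of cases. Lower members had a higher promoter in 7.67% and a lower one in 36.3%. These shares were taken without local centring, and the part of regional shifts in them was not tested. Members of the same host gene share its promoter peak, which is then counted repeatedly.

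Host genes are named here for their counts of changed later-intron peaks, so high counts follow from the rule. Of all peaks, 20.4% were higher and 15.5% lower before local centring. SNX29, which encodes a sorting nexin, had 19 of 26 later-intron peaks higher and 0 lower (median 1.60), and its RNA rose by 2.16 (adjusted p 4.96e-30 in the authors' deposited table, DESeq2). It lies in the shifted end of chromosome 16: after local centring 6 of the peaks were higher and 2 lower, beside 17.9% and 12.9% of all peaks. PRKCB, the protein kinase C of B cell receptor signalling, had 9 of 16 higher with RNA up by 1.47, and 5 higher and 1 lower after centring. PDE4D, a cyclic AMP phosphodiesterase gene, had 11 of 28 higher and 0 lower, and the same number was higher after centring, while its RNA did not pass (0.20, adjusted p 0.677 in the authors' deposited table, DESeq2).

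BACH2, a repressor that keeps B cells from becoming plasma cells, and CSMD1 completed the 5 host genes with the most higher peaks. BACH2 had 13 of 21 peaks higher and 2 lower, and after local centring 1 higher and 3 lower; its RNA did not pass (-0.42, adjusted p 0.276 in the authors' deposited table, DESeq2). Both of its lower peaks lie in intron 5: the one at chr6:90079523-90080306 went from a fitted 312 to 122 normalised counts (-1.35 in the authors' deposited table), while the next called peak, at chr6:90080783-90081541, went from 109 to 214 (0.97). CSMD1 had 12 of 17 higher, and 7 higher and 1 lower after centring.

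PLCG2, the phospholipase that carries the B cell receptor signal to calcium, had the most lower peaks. Of its 20 later-intron peaks, 17 were lower and 0 higher in the authors' deposited table, with log2 fold changes from -1.50 to -0.12 and a median of -0.63. Its most significant peak, in intron 2 (chr16:81808744-81809739), went from a fitted 1961 to 1003 normalised counts. PLCG2 RNA fell by 0.67 and its promoter peak by 0.73 (adjusted p 8.68e-05 and 1.91e-07 in the authors' deposited tables, DESeq2). Neighbouring genes moved as well, with a local median of -0.60; after centring on it 6 of the 20 peaks were lower and 1 was higher.

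Other host genes with many lower peaks differed in how far their region moved with them. Of all peaks, 20.4% were higher and 15.5% lower before local centring, and 17.9% and 12.9% after it. ASAP1, which encodes a GTPase-activating protein for ARF, had 15 of 20 lower, and 4 lower and 4 higher after centring. SAMD12 had 10 of 13 lower, with RNA of -1.80, and 2 lower after centring. PTPRD had 10 of 18 lower, and 0 lower and 5 higher after centring. LPP had 11 of 26 lower and 4 higher, and 5 of each after centring. NCALD, a neuronal calcium sensor gene, had 9 of 14 lower before and 8 after centring with RNA of -1.43, and CADPS, a regulator of vesicle release, had 9 of 16 before and 7 after with RNA of -1.59 (all passed in the authors' deposited table, DESeq2).

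In ZNF521, ZNF704 and SDK1 most of the changed intron peaks went against the RNA. All 3 later-intron peaks of ZNF521, a zinc finger regulator of early B cell factors, rose by 1.29 to 1.73, while its RNA fell by 3.38 and its promoter peak by 1.06 (adjusted p 2.19e-13 and 1.64e-12 in the authors' deposited tables, DESeq2). ZNF704 had 3 of 7 peaks higher and 0 lower with RNA of -4.93 (SE 1.47, adjusted p 0.00686, DESeq2) at a low 0.688 CPM. SDK1 had 1 higher and 3 lower with RNA of 2.15. AUTS2 and UST had changed peaks in both directions. AUTS2 had 7 peaks higher and 4 lower with RNA of 1.10, so that most of them went with the RNA, and UST, which encodes a sulfotransferase, 3 higher and 3 lower with RNA of -1.93. In UST the 3 decreases lay in introns 2 to 5 and the 3 increases in intron 7.

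B cell transcription factor genes held 229 of the members, of which 46 rose (20.1%) and 43 fell (18.8%), beside 20.4% and 15.5% of all peaks. Their median log2 fold change was -0.01. PAX5, which fixes B cell identity, had its most significant peak in intron 4 (chr9:36993715-36994727), where the fitted level went from 209 to 746 normalised counts. The log2 fold change was 1.83 in the authors' deposited table (SE 0.13, DESeq2 adjusted p 2.13e-44). Of the 11 later-intron peaks of PAX5, others that rose were at 2.49, 1.61 and 1.52, and 1 fell (-1.08); PAX5 RNA did not pass (-0.07, adjusted p 0.832 in the authors' deposited table, DESeq2). A peak in intron 6 of FOXP1 fell by 1.60 and one in intron 2 of RUNX1 by 1.34, neither with RNA past the threshold. EBF1, with 30 later-intron peaks, had 2 higher and 4 lower, and its RNA did not pass (-0.19, adjusted p 0.552).

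Genes of NF-kB and CD40 signalling held 26 members, 7 higher (26.9%) and 6 lower (23.1%), beside 20.4% and 15.5% of all peaks, while 12 of the 24 genes of that list rose at the RNA level and 1 fell. The peak in intron 2 of TNFAIP3, the ubiquitin editor that restrains NF-kB, went from a fitted 232 to 445 (0.94 in the authors' deposited table), with RNA up by 2.86. After local centring this peak was at 0.26 and did not pass. In NFKB1, which encodes the p50 subunit, a peak in intron 5 rose by 0.79, and in TRAF1, an adaptor of TNF receptors, one in intron 2 rose by 0.54. Both stayed past the threshold after local centring. The TRAF1 peak touches an exon and is centred 396 bases from a GENCODE start. None of these 3 peaks passed against a 1.5-fold change (adjusted p 0.0773, 0.403 and 1) or with scaled statistics (0.170, 0.267 and 0.348).

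Plasma cell genes held 20 members, 5 higher and 2 lower (median 0.06); the 35% called was near the 35.9% of all peaks. The list's RNA rose for 9 of 13 tested genes and fell for 0. In intron 2 of IRF4, the factor that drives plasma cell differentiation, the peak at chr6:393902-394359 went from 41.2 to 118 (1.52 in the authors' deposited table, SE 0.30, DESeq2 adjusted p 3.07e-06). IRF4 RNA rose by 3.65. The single later-intron peak of SLAMF7, a surface receptor of plasma cells, rose by 1.17, and a peak in intron 7 of ZBTB20 fell by 0.52 (authors' deposited table). With scaled statistics the peaks of IRF4, SLAMF7 and ZBTB20 did not pass (adjusted p 0.379, 0.323 and 0.653), and that of ZBTB20 did not pass against a 1.5-fold change either.

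B cell receptor signalling genes held 184 members, of which 41 were higher (22.3%) and 50 lower (27.2%; 49.5% called beside 35.9% of all peaks, median -0.11), the 17 decreases of PLCG2 among them. A peak in intron 9 of BLK, a SRC family kinase of B cells, rose by 2.45 in the authors' deposited table, from a fitted 67.1 to 367. It stands on a part of chromosome 8 that was higher as a whole, and its value was 1.60 after local centring.

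Genes of G protein signalling and positioning had 26 of 73 members higher (35.6%) and 4 lower (5.48%), beside 20.4% and 15.5% of all peaks (median 0.23, and 0.26 after local centring). GNG7, which encodes a G protein gamma subunit, gave 6 of the increases in intron 2, the largest of 1.87 from a fitted 67.0 to 244. A peak in intron 5 of PREX1, a RAC exchange factor that G proteins activate, rose by 2.35 while its RNA fell by 0.75 (adjusted p 0.00279 in the authors' deposited table, DESeq2). With scaled statistics the PREX1 peak did not pass (adjusted p 0.0934). GNG7 RNA did not pass (-0.25). The 24 tested genes of the list gave 5 with higher and 6 with lower RNA.

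Germinal centre B cell genes had 1 of 22 members higher (4.55%) and 6 lower (27.3%), beside 20.4% and 15.5% of all peaks; 31.8% were called, against 35.9% (median -0.04). The list had RNA that was higher for 2 and lower for 8 of 18 genes. The peaks in introns 2 of CD27 and GCSAM fell by 0.44 and 0.64, and one in intron 8 of MYBL1 by 0.70 in the authors' deposited table. After local centring that of CD27 did not pass (-0.15) and that of MYBL1 was at -1.09. None of these 3 passed against a 1.5-fold change or with scaled statistics (adjusted p 0.227, 0.306 and 0.321). Common fragile site genes, which are long and hold many introns, had 47 of 220 higher (21.4%) and 36 lower (16.4%; median 0.05), from a peak of CSMD1 at 3.36 (76.6 normalised counts to 785, and 2.37 after local centring) to a peak of DLG2 at -3.34 (153 to 15.1).

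Inside and within 1 Mb of the labelled interval lay 6 later-intron peaks, of which 3 passed, all lower. The only one inside the labelled interval, in intron 3 of RGS13 (chr1:192639015-192640310), had fitted levels of 473 normalised counts in wild type and 520 in the knockout (0.14 in the authors' deposited table, SE 0.12, DESeq2 adjusted p 0.386). Its level was thus kept, against what a deletion of the interval as labelled would leave. RGS13 RNA did not pass (-0.20, adjusted p 0.628). Within 1 Mb of the interval were 3 peaks of RO60 and 2 of CDC73. A peak in intron 8 of RO60 fell by 2.24 (205 to 43.5, adjusted p 2.58e-16), the other two of RO60 did not pass (-0.25 and 0.73), and the CDC73 peaks fell by 1.24 and 0.63 (adjusted p 6.78e-05 and 0.0488 in the authors' deposited table, DESeq2). The smaller of these did not pass after local centring, neither of the 2 passed with scaled statistics (adjusted p 0.529 and 0.940), and the RNA of both genes did not pass.

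The NF-kB motif stood out among the 11 motifs searched in the 300 bases at each peak's centre. It was in 3.12% of later-intron peaks, against 3.11% of all peaks, but in 6.11% of the higher members, 1.88% of the lower ones and 2.49% of those not past the threshold. Seen from the motif, 39.0% of the 633 members that hold it were higher and 9.48% lower, with a median log2 fold change of 0.37. Members without it were higher in 19.3% and lower in 15.9% of cases, with a median of -0.03. After local centring the median with the motif was 0.36. The same direction was seen in first introns (39.6% higher with it, 21.5% without) and in intergenic peaks (47.0% and 22%).

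The 4 sequences printed for this motif come from peaks with different settings. The CALN1 peak went from a fitted 70.3 to 612 normalised counts (3.12 in the authors' deposited table), and the PAX5 peak is the one described with its gene. The PLEKHG1 peak rose by 1.27 and its RNA by 1.15, but with a local shift in the same direction it was at 0.52 after centring. The SNX29 peak went from 24.7 to 247 (3.32, and 2.13 after centring) and touches an exon. By RNA of the host gene, members with the motif were higher in 52.1% of 73 cases where the RNA rose and 35.8% of 299 where it did not pass. The share was 18.5% of 65 where the RNA fell, with 24.6% lower, and 45.9% of 196 where it was not tested. All members showed the same order, with 32.7%, 17.1%, 9.66% and 23.3% higher in these classes.

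Other motifs of induced factors differed less. AP-1, bound by FOS and JUN proteins, was in 14.1% of higher and 11.8% of lower members (11.8% of all members, 10.8% of all peaks). The ISRE (GAAA and, 2 bases on, another GAAA), bound by interferon regulatory factors, was in 7.69% and 5.83% (6.36% of all members, 5.84% of all peaks). Members with AP-1 but no NF-kB motif were higher in 22.9% of 2304 cases, and those with both in 47.1% of 87. The E-box was in 37.1% of higher and 31.0% of lower members, against 32.1% of all members and 30.4% of all peaks. The median GC content of the windows was 47.0% in higher and 44.7% in lower members, and its part in these shares was not tested.

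Of the motifs of B cell factors, PU.1, the octamer and the ETS-IRF composite were more frequent among lower than higher members. PU.1 was in 4.73% of higher and 8.37% of lower members (5.9% of all members, 5.35% of all peaks). The octamer ATGCAAAT was in 4.90% and 7.71% (5.17% of all members, 4.57% of all peaks). Of the members with PU.1, 15.9% were higher and 22.3% lower, against 20.2% and 15.3% of those without it. With the octamer the shares were 18.9% and 23.4%, against 20% and 15.3% without it. Intergenic peaks with the octamer were higher in 26.0% and lower in 17.4% of cases, and those without it in 22.7% and 13.7%. With PU.1 the shares were 18.5% and 17.9% in first introns and 19.1% and 21.4% in intergenic peaks. Without PU.1 they were 22.2% and 15.3% in first introns and 23.1% and 13.4% in intergenic peaks. The printed PU.1 examples fell from a fitted 464 to 103 in GABARAPL2, which encodes an autophagy protein (-2.16, and -1.47 after centring), and from 1497 to 778 in MYRFL. The ETS-IRF composite, a joint site of PU.1 and IRF4 or IRF8, was in 5.17% of higher and 6.83% of lower members (5.72% of all members, 5.24% of all peaks). Members with this composite were higher in 18.0% and lower in 18.8% of cases, against 20% and 15.5% of those without it. In first introns the shares were 19.3% and 15.9% with it, and 22.1% and 15.4% without. In intergenic peaks they were 22.8% and 17.7%, against 22.9% and 13.6% without it. The other 3 were slightly more frequent among higher members. RUNX was in 12.2% of higher and 11.1% of lower members (10.8% of all members, 9.66% of all peaks). EBF1 (TCCC and, 2 bases on, GGGA) was in 1.34% and 0.972% (1.09% of all members, 1.16% of all peaks). MEF2 (CTA and, 4 adenines on, TAG) was in 0.346% and 0.313% (0.32% of all members, 0.257% of all peaks). The MEF2 shares rest on few peaks, 14 higher and 10 lower members. After local centring they were 0.332% and 0.449%, from 12 peaks each.

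Peaks with a CTCF core changed least often. The core was in 9.26% of members and 8.49% of all peaks, but in 3.19% of higher members and 4.76% of lower ones, against 12.2% of those not past the threshold. By the calls after local centring it was in 2.13% of higher and 3.78% of lower members. Of the 1880 members with it, 14.9% passed, against 37.7% of those without. The shares were 19.3% and 38.4% in first introns, 16.4% and 39.2% in intergenic peaks and 27.4% and 34.5% in promoters. The median means of members with and without the core were 79.1 and 86.7, and the part of the mean in these shares was not tested. The LINC02255 peak, with a fitted 2005 normalised counts in wild type and 1853 in the knockout, is an example of a member with the core that did not pass (-0.11, adjusted p 0.139 in the authors' deposited table, DESeq2). The SPTBN4 peak passed with 1559 and 1345 (-0.21, adjusted p 0.0181). The BAIAP3 peak rose from 1209 to 2570 (1.09, adjusted p 2.60e-65 in the authors' deposited table, DESeq2) in the shifted end of chromosome 16, and was at 0.07 after local centring.

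**Figure D5:**
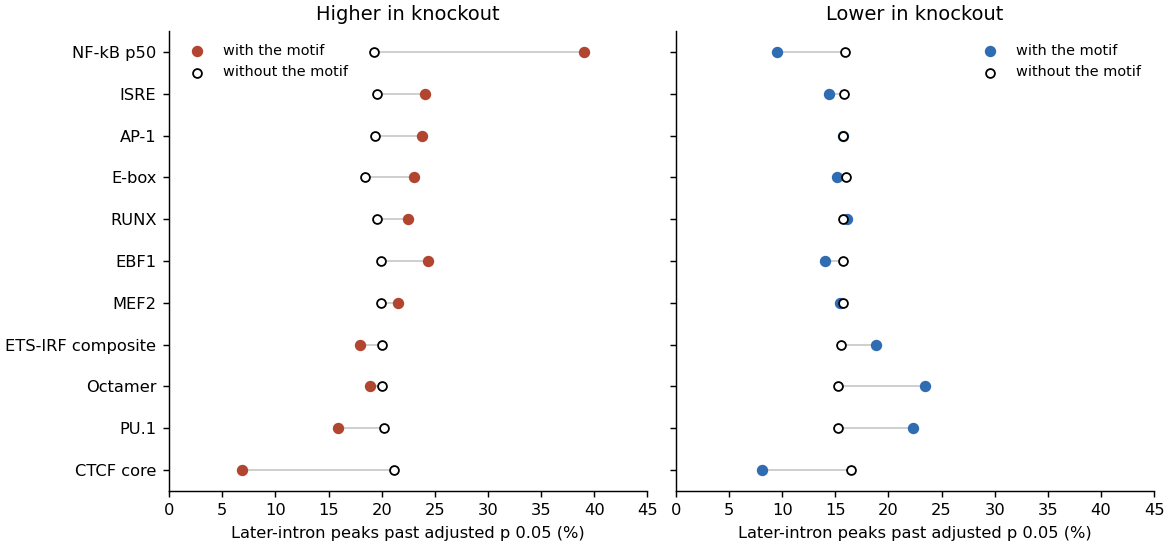
For each of 11 motifs, points give the percent of later-intron peaks that were higher (left) or lower (right) in the knockout past an adjusted p of 0.05, with the motif in the 300-base centre (filled) and without it (open). The widest gaps are the NF-kB p50 motif on the left (39.0% against 19.3%) and, on both sides, the CTCF core (6.86% against 21.2%, and 8.09% against 16.5%).

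The RNA table carried the markers of B cells. All 8 B cell markers were present, from 77.0 to 844 CPM. Only 2 of 6 T and NK cell markers and 3 of 6 myeloid markers were in the table, none above 0.233. Of 7 markers of epithelial cells, fibroblasts and erythroid cells, 3 were in the table, the highest COL1A1 at 6.19.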

How the data were processed

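Wild-type and RGS-SE knockout Raji cells were profiled by ATAC-seq and RNA-seq, 2 libraries per genotype and assay. The submitters' processing notes name Trim Galore, Trimmomatic, cutadapt, STAR, featureCounts, Bowtie2, HOMER and DESeq2 with GRCh38 or hg38. Of versions, settings and peak calling nothing is stated in those notes. Each deposited table holds DESeq2 results, per the file headers: the signal is the mean over 4 libraries of counts divided by size factors, by the authors. The authors' log2 values are the fold change and its SE, and their score is the Wald statistic. The deposited p-value is two-sided and its adjusted form follows Benjamini and Hochberg; both were recomputed from the fold change and SE. The other deposited unit is HOMER's distance to the nearest start site in bp. The depth of a library is unknown.

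The count test of edgeR named in the design needs counts, so the authors' Wald test was used, adjusted over all 70312 peaks, at an adjusted p of 0.05. Fitted levels of a genotype follow from the mean and the fold change. Python 3.11.15 with numpy 2.4.6, pandas 2.3.3 and scipy 1.17.1 was used; the calling code was tested on simulated data. Local centring took the median of a peak and 50 on each side. Motifs were matched in the 300 bases of hg38 at each peak's centre, and host genes came from the annotated RefSeq accession (GRCh38.p14 table). Peaks were named by rule: the 10 largest increases and decreases with at least the median mean of the members, the 5 highest means, up to 3 per gene list (7 lists), peaks within 1 Mb of the interval, runs, and the 5 host genes per direction. The members and lists were chosen with earlier results of these data known. DLG2, TCAF2, EBF1 and the example sequences were chosen after their values were seen. A peak that the rule names is not reported here.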

Additional observations from a re-analysis of the deposited data

How the results depend on the processing

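The count of 7232 later-intron peaks past the threshold was 3789 of 8873 with a minimum mean of 100, 2106 against a 1.5-fold change, 548 with scaled statistics and 2937 of 8018 with 1 peak per host gene, where fewer peaks were tested. It stayed within 1.5 times with chromosome centring (7050), local centring (6284) and an adjusted p under 0.01 (5312). So it did without peaks that touch an exon (5691) or lie near a GENCODE start (6660), 2 settings added after seeing the data. The share of changed peaks that were higher, 55.9%, was 53.9% with the minimum mean, 57.5% with local centring, 67.2% against 1.5-fold, 65.0% with scaled statistics and 59.3% at 0.01. The median log2 fold change of -0.0150 was -0.00310 with the minimum mean and -0.00338 with local centring. The share of peaks in the direction of the host RNA, 76.8%, was 83.8% for RNA changes of at least 1 log2 unit and 61.7% with local centring, also added later. The causes were not tested. Of 52 named peaks, local centring turned SLC38A8 (0.19) and chromosome centring turned ETS1 (0.00156), which did not pass there; ETS1 passed after local centring (-0.16); TNFAIP3, CD27 and 1 CDC73 peak no longer passed after local centring. With scaled statistics 16 of the 52 no longer passed, PUDP among them (adjusted p 0.101). In 200-base windows the NF-kB motif was in 4.50% of higher and 1.44% of lower members. No paired analysis was possible because the tables hold no values per library; leaving out a library and another normalization (TMM) were not run for the same reason.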

Other observations

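Some later-intron peaks are centred on repeats, by the annotation in the authors' deposited table, and a few families of long terminal repeats leaned upwards. Of 32 members centred on THE1B, an element of an ancient retrovirus-like family, 14 were higher and 0 lower (median log2 fold change 0.52), and of 21 on the related THE1C 10 were higher and 2 lower (0.71). MLT1F2 gave 11 higher and 0 lower of 30. The related THE1D did not lean, with 6 higher and 6 lower of 33. Outside later introns, 52.1% of 71 THE1B peaks and 33.3% of 87 THE1C peaks were higher. Over the whole ERVL-MaLR group, to which the THE1 and MLT1 families belong, 21.4% of 611 members were higher and 14.2% lower. The shares of all peaks were 20.4% and 15.5%. In ERV1, another group of long terminal repeats, 28.9% of 308 members were higher and 13.6% lower. L1MB8, a LINE family, leaned downwards with 3 higher and 11 lower of 28 (median -0.48), while elsewhere 19.2% of 52 were higher and 21.2% lower. The families were picked after their values were seen, and reads in repeats can be shared between copies.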
